A study of Mus musculus with 16 samples.

Results

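Tuft cells are rare epithelial cells that sense the gut lumen, and 10 genes they are known for were followed here in RNA from the ileum mucosa of mice with and without Schlafen 3. The genes were taken by symbol from the 46078 genes of the deposited table, and all 10 were found. Ileum mucosa was sequenced from 16 C57Bl/6 mice, with 1 library per mouse and 4 mice in each of the groups female Slfn3KO, female WT, male Slfn3KO and male WT. Slfn3KO mice carry a knockout of Slfn3 (Schlafen 3), the WT mice were described as littermates, and no mouse received an agent. The labels give an age of 8 weeks for every mouse, and the study's methods give an older range.

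Tuft cells carry a taste-type signalling chain that ends in the cation channel Trpm5. They depend on the transcription factor Pou2f3 and are commonly identified by the kinase Dclk1. In the small intestine they release the cytokine IL-25, which activates type 2 innate lymphoid cells, and they make leukotrienes and prostaglandins from arachidonic acid. The genes fall into 3 roles. Pou2f3 and Gfi1b encode transcription factors, Dclk1, Trpm5 and Il25 are the marker kinase, the channel and the cytokine, and Alox5, Alox5ap, Ltc4s, Hpgds and Ptgs1 encode the eicosanoid enzymes. Most of the enzyme genes, and Gfi1b, are also expressed by blood or mast cells, and Pou2f3, Trpm5 and Dclk1 serve other tissues as well.

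Libraries held between 20823279 and 30813117 counted reads, so that 3 counts correspond to between 0.0974 and 0.144 CPM, the counts scaled to the library total. Such a floor covers counting error only. Slfn3 itself had 0 to 2 counts in the 8 Slfn3KO libraries and 0 to 19 in the 8 WT libraries, of which male WT 4 had 0. The count of this gene therefore separates the genotypes only in part. In 4 of the 16 libraries, WT 3 and WT 4 of each labelled sex, Xist and the Y-linked genes go against the labelled sex. The labels were kept, and the fold changes, list counts and correlations were also computed without these 4 libraries. The epithelial gene Epcam lay between 2187 and 4713 CPM over the libraries. Nothing states whether the 4 mice of a group were processed on separate days, and p-values measure the spread between these mice.

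The promoters of the genes are shown because several of the genes varied together over mice and others did not. RefSeq promoter sequences (GRCm38.p6) were held for 7 of the 10 genes, with 8 start sites. Pou2f3, Il25 and Alox5ap had no entry. The 250 bases before each start were searched on both strands for the octamer ATGCAAAT, a sequence that POU factors such as the Pou2f3 protein bind. It was found before 1 of the 8 starts, that of Hpgds, 174 bases upstream of the RefSeq start on the strand of the gene. Of 32851 mouse promoters, 1.6% held it in the same window. In the annotation used for counting, Hpgds reaches position 65144908, so its octamer lies inside that gene model. The GC content of the 8 windows lay between 44.4% and 57.6%, against a median of 52.4% over all promoters. The windows below are written 5′ to 3′ on the strand of each gene, with the octamer in capitals. They come from a gene with the octamer (Hpgds, chr6:65144731-65144980, minus strand), from a pair that varied together (Alox5, chr6:116461179-116461428, minus strand, and Dclk1, chr3:55242114-55242363, plus strand, the upstream start of 2) and from a gene that did not follow them over all 16 libraries (Trpm5, chr7:143094643-143094892, minus strand).
Hpgds: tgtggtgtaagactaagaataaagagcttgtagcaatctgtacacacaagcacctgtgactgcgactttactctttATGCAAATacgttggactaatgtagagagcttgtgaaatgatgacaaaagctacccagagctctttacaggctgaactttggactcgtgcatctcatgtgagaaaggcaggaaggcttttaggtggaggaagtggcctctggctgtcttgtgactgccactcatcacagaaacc
Alox5: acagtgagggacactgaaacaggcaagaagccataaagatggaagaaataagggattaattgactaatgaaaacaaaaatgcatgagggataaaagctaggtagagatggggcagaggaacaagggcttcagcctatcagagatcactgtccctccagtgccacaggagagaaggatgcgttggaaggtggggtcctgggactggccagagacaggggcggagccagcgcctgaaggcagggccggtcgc
Dclk1: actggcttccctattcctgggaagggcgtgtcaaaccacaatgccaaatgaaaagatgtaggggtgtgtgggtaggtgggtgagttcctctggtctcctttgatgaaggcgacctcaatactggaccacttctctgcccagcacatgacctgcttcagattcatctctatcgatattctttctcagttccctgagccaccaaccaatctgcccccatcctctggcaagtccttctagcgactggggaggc
Trpm5: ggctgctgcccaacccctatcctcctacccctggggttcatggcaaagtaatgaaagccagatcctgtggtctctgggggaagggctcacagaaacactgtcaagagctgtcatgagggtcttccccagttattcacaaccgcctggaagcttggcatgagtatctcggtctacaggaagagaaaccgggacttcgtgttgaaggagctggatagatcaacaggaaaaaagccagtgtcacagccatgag

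All 10 genes were expressed at a low level. Per length, as TPM computed from the counts and the exon lengths in the table (reads per kilobase, scaled to the same sum in every library), mean levels over the 16 libraries ran from 0.331 ± 0.195 (SD, n = 16) for Il25 to 5.51 ± 2.01 for Ltc4s, the leukotriene C4 synthase gene. Trpm5 had 5.48 ± 1.4 TPM, Alox5ap 4.83 ± 1.97 and Ptgs1 4.35 ± 1.35. Neighbours among these 4 genes differed by less than 1 SD. Below them came Hpgds with 2.14 ± 0.782 TPM, which Ptgs1 exceeded in 16 of 16 libraries. Alox5 (1.63 ± 0.760 TPM), Pou2f3 (1.54 ± 0.822) and Dclk1 (1.41 ± 0.570) followed, and Hpgds and these 3 genes could not be ordered beyond their spread. Gfi1b had 0.429 ± 0.242 TPM and lay below Dclk1 in 16 of 16 libraries. The mean levels of Ltc4s and Trpm5 were nearly equal, yet Ltc4s was above Trpm5 in 4 of 16 libraries, and its highest library, female WT 2, had 11.1 TPM. The deposited length of Ltc4s is 736 bases, whereas GENCODE M21 gives it 1014 exon bases. With the longer length its TPM would be lower, so its place at the top depends on the length used. Counts per library ran from 242 to 536 for Trpm5 and from 77 to 348 for Dclk1, whereas Gfi1b had 1 to 16 counts and Il25 1 to 9, so the last pair rests on few reads.

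To ask how the loss of Slfn3 relates to these genes, each was compared between the 8 Slfn3KO and the 8 WT mice. Values between libraries are CPM scaled by TMM factors, fold changes are Slfn3KO over WT on the log2 scale with the standard error (SE), and p-values are from the quasi-likelihood test of edgeR, adjusted over all genes tested by the Benjamini-Hochberg method. A gene was called where its adjusted p was under 0.05 and it differed 1.5-fold or more. None of the 9 genes that passed the filter on low counts was called, as was none of the 14822 genes tested in all (0%). At an unadjusted p under 0.05, 2 of the 9 were reached, Alox5 and Pou2f3, where 11.9% of all genes tested reached it, and both were higher in Slfn3KO, where 4.84% of all genes were. By estimate, 6 of the 9 genes were higher in Slfn3KO against 49.3% of all genes, and their median log2 fold change was 0.42 against -0.004 over all genes. Alox5 was also picked by the study from these same mice, so its place here is not independent of them. In whole mucosa, a difference in the number of tuft cells and a difference in RNA per tuft cell cannot be told apart.

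**Figure D1:**
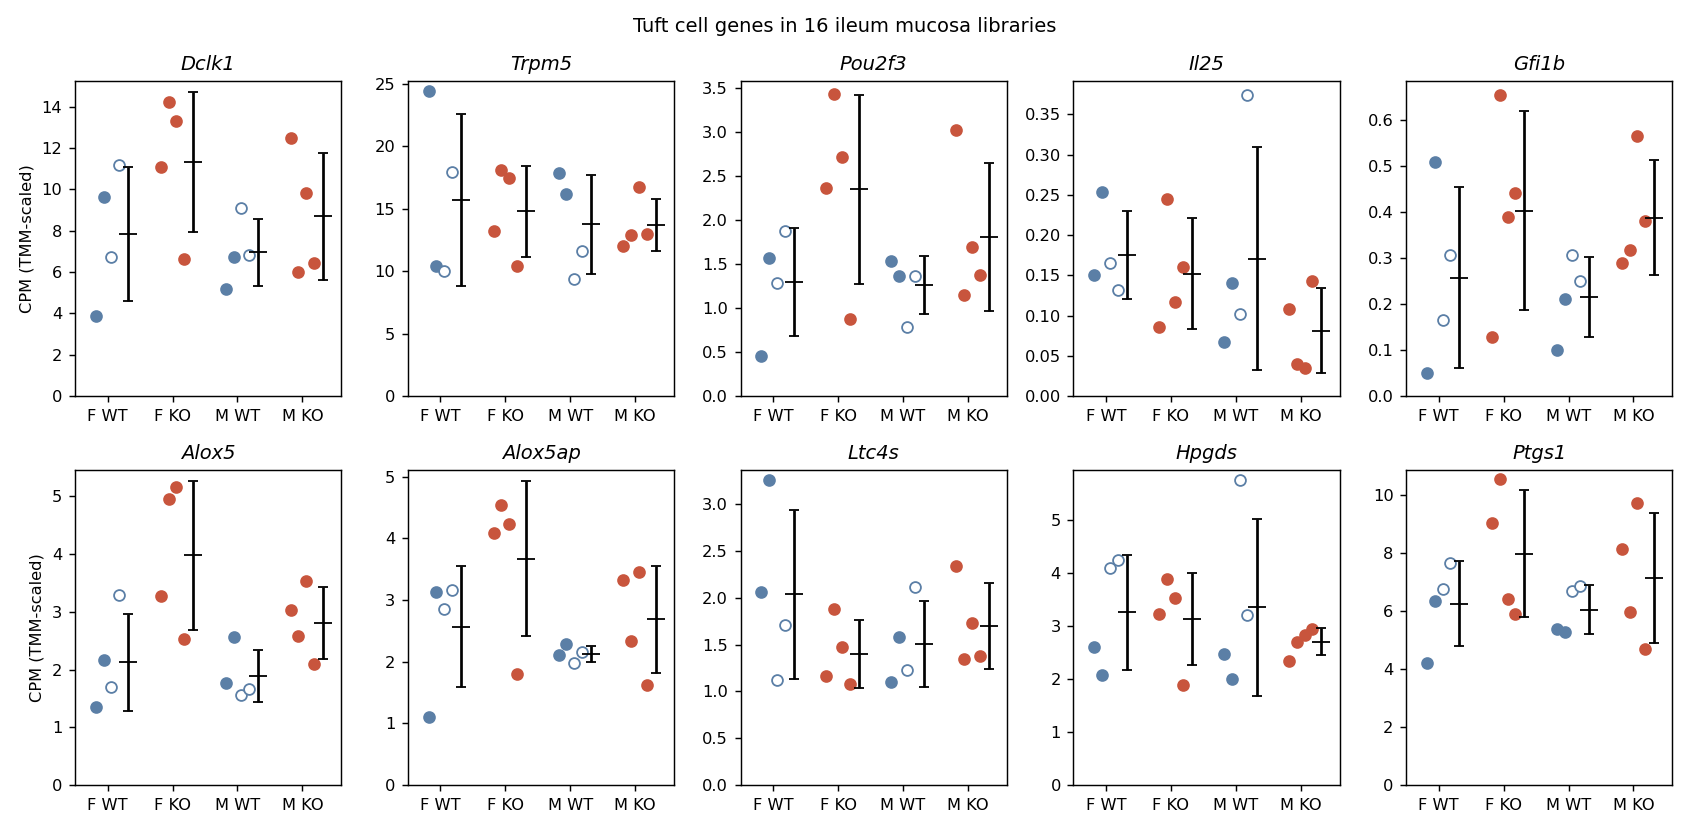
CPM (TMM-scaled, linear axes from 0) of the 10 genes in each library, with points for the 4 mice of a group in the order of their numbers and bars for mean ± SD (n = 4). F and M are the labelled sex, KO is Slfn3KO, and open points are WT 3 and 4. Alox5 lay between 2.09 and 5.17 CPM in Slfn3KO and between 1.36 and 3.29 CPM in WT, while Trpm5 overlapped across its whole range.

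Among the transcription factors, Pou2f3, which tuft cells require, ran from 0.883 over a median of 2.03 to 3.43 CPM in Slfn3KO and from 0.452 over 1.37 to 1.88 CPM in WT. In 4 of 8 Slfn3KO libraries it lay above every WT library, and the genotypes overlapped in the rest. Its log2 fold change was 0.69 (SE 0.32, unadjusted p = 0.0453, adjusted p = 0.408, edgeR), a 1.61-fold estimate. Pou2f3 stayed under an unadjusted p of 0.05 in 10 of 23 settings of the fit and was above 0 in all 23. Without the WT libraries 3 and 4 its log2 fold change was 0.73 (unadjusted p = 0.115, edgeR). Gfi1b encodes a repressor used by tuft cells and by the erythroid and platelet lineages. It ran from 0.129 over 0.384 to 0.654 CPM in Slfn3KO and from 0.0502 over 0.230 to 0.508 CPM in WT, and 7 of 8 Slfn3KO libraries were above the WT median. The log2 fold change of Gfi1b was 0.73 (SE 0.38, adjusted p = 0.470, edgeR). With 1 to 16 counts per library, Gfi1b did not pass the filter in males or in females alone.

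Dclk1, the usual tuft cell marker, ran from 5.99 over a median of 10.5 to 14.2 CPM in Slfn3KO and from 3.87 over 6.77 to 11.2 CPM in WT. The genotypes overlapped widely, with 3 of 8 Slfn3KO libraries above every WT library. Its log2 fold change was 0.42 (SE 0.23, unadjusted p = 0.0827, adjusted p = 0.484, edgeR). Without the WT libraries 3 and 4 the log2 fold change of Dclk1 was 0.64 (SE 0.29, unadjusted p = 0.0501, edgeR). Trpm5, the channel that depolarises tuft cells, was the most abundant of the genes by counts and did not share this direction. It ran from 10.4 over 13.1 to 18.1 CPM in Slfn3KO and from 9.35 over 13.9 to 24.5 CPM in WT, where the highest value was female WT 1. Its log2 fold change was -0.05 (SE 0.20, unadjusted p = 0.815, adjusted p = 0.933, edgeR), and the sign turned when female WT 1 (0.09), male WT 1 (0.01) or female Slfn3KO 4 (0.02) was left out. Without the WT libraries 3 and 4 the log2 fold change of Trpm5 was -0.28 (unadjusted p = 0.197, edgeR). In the annotation 220 of the 6398 exon bases of Trpm5 overlap Tssc4 on the opposite strand, and the reads were counted by strand.

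Il25, the cytokine that links tuft cells to type 2 lymphoid cells, did not pass the filter. It had 1 to 9 counts per library. Its values ran from 0.0353 over a median of 0.112 to 0.245 CPM in Slfn3KO and from 0.0668 over 0.145 to 0.374 CPM in WT, so that most libraries were near the floor of 3 counts. The mean was 0.117 ± 0.0684 CPM in Slfn3KO and 0.173 ± 0.0976 CPM in WT (SD, n = 8 each). The difference of -0.0564 CPM gave p = 0.211 in an exact two-sided permutation test over 4900 labellings within labelled sex. A change was not detectable at this depth.

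The genes of leukotriene synthesis had estimates of both signs, none was called, and the genes were not compared with each other by a test. Alox5 encodes 5-lipoxygenase, the enzyme that opens this branch. In female Slfn3KO 1 to 4 it had 3.27, 4.95, 5.17 and 2.53 CPM and in female WT 1 to 4 it had 1.36, 2.16, 1.70 and 3.29 CPM. In male Slfn3KO 1 to 4 Alox5 had 3.03, 2.58, 3.53 and 2.09 CPM and in male WT 1 to 4 it had 1.77, 2.56, 1.56 and 1.66 CPM. All 8 Slfn3KO libraries were above the WT median of 1.73 CPM, and 3 of them were above the highest WT library, female WT 4. The groups of each labelled sex overlapped through female WT 4 and male WT 2. The log2 fold change of Alox5 was 0.74 (SE 0.21, unadjusted p = 0.0034, adjusted p = 0.327, edgeR), a 1.67-fold estimate. Over 23 settings of the fit the unadjusted p of Alox5 ran from 0.00084 to 0.0189, under 0.05 in all of them, and its adjusted p from 0.0637 with DESeq2 to 0.761.

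Alox5ap encodes the membrane protein that presents arachidonic acid to 5-lipoxygenase. It ran from 1.62 over a median of 3.39 to 4.54 CPM in Slfn3KO and from 1.10 over 2.22 to 3.15 CPM in WT, and 5 of 8 Slfn3KO libraries lay above every WT library. Its log2 fold change was 0.43 (SE 0.24, unadjusted p = 0.0944, adjusted p = 0.505, edgeR). Ltc4s encodes the enzyme that conjugates the product to glutathione, the step that makes leukotriene C4. It ran from 1.08 over 1.43 to 2.34 CPM in Slfn3KO and from 1.10 over 1.64 to 3.26 CPM in WT, and its log2 fold change was -0.18 (SE 0.25, adjusted p = 0.774, edgeR). That change was -0.34 (unadjusted p = 0.285, edgeR) without the WT libraries 3 and 4. Of the exon bases of Ltc4s in GENCODE M21, 26.4% lie opposite exons of the antisense gene Gm26542, whose mean level was 0.479 CPM.

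Of the prostaglandin genes, Ptgs1 encodes cyclooxygenase 1. It ran from 4.70 over a median of 7.28 to 10.5 CPM in Slfn3KO and from 4.22 over 6.52 to 7.67 CPM in WT, with 4 of 8 Slfn3KO libraries above every WT library and the others spread through the WT range. Its log2 fold change was 0.29 (SE 0.17, unadjusted p = 0.110, adjusted p = 0.525, edgeR), and without the WT libraries 3 and 4 it was 0.50 (SE 0.22, unadjusted p = 0.0432, edgeR). Hpgds encodes the haematopoietic prostaglandin D synthase, which tuft cells share with mast cells and T cells. It ran from 1.89 over 2.89 to 3.88 CPM in Slfn3KO and from 2.0 over 2.91 to 5.75 CPM in WT, and the 3 highest libraries were male WT 3 (5.75), female WT 4 (4.25) and female WT 3 (4.10). The log2 fold change of Hpgds was -0.18 (SE 0.23, adjusted p = 0.754, edgeR). It was 0.0048 without male WT 3 and 0.34 (SE 0.19, unadjusted p = 0.106, edgeR) without the 4 WT libraries 3 and 4.

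**Figure D2:**
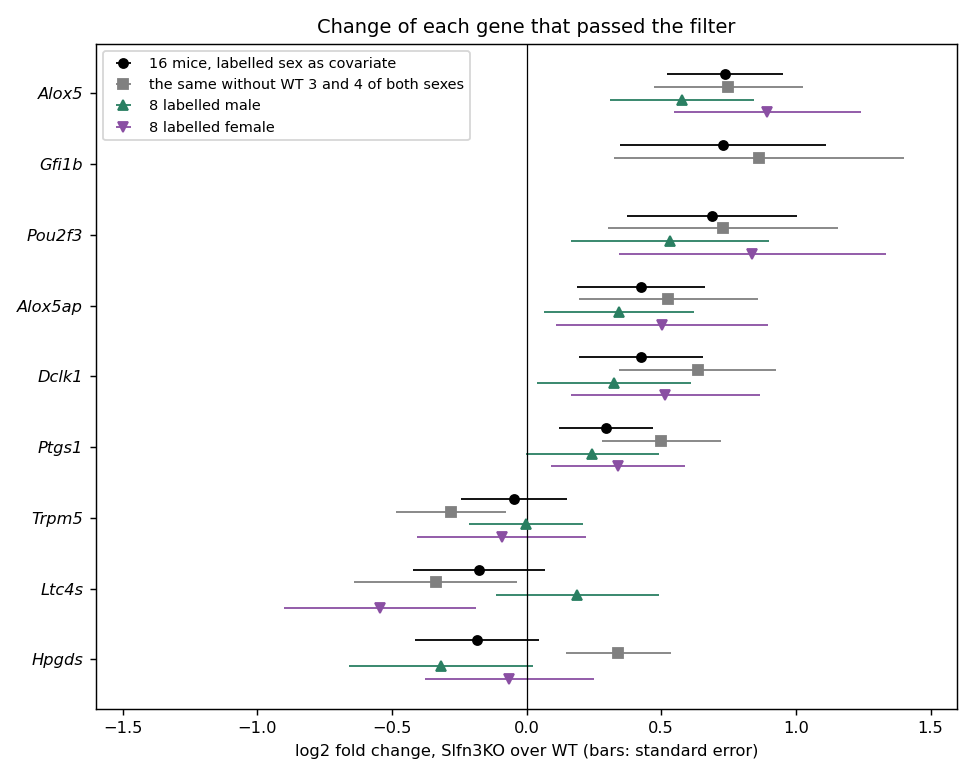
Log2 fold change of Slfn3KO over WT for the 9 genes that passed the filter, with bars of 1 standard error. Points are the fit of 16 mice, the same fit without WT 3 and 4, and the fits of 8 mice labelled male and 8 labelled female. Alox5 was at 0.74 in the fit of 16 mice, and Hpgds moved from -0.18 to 0.34 without WT 3 and 4.

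Within each labelled sex the order was similar and the errors were larger. None of the 8 genes that passed the filter was called in males (0% of 14124 genes) or in females (0% of 14064 genes). At an unadjusted p under 0.05, none of the 8 was reached in males, against 3.84% of all genes tested, and Alox5 was reached in females, against 17.1% of all genes tested. In females the log2 fold change of Alox5 was 0.89 (SE 0.35, unadjusted p = 0.0311, adjusted p = 0.273, edgeR) and in males it was 0.58 (SE 0.27, unadjusted p = 0.0600, adjusted p = 0.925, edgeR). Pou2f3 was at 0.84 (SE 0.50) in females and 0.53 (SE 0.37) in males, and Dclk1 at 0.51 (SE 0.35) and 0.33 (SE 0.29). The difference between the sexes, female minus male, was not called for any of the 9 genes (0% of 14822). None of them reached an unadjusted p under 0.05, against 11.1% of all genes. The largest difference was that of Ltc4s, which was at -0.55 (SE 0.36) in females and 0.19 (SE 0.30) in males, a difference of -0.72 (SE 0.47, unadjusted p = 0.147, adjusted p = 0.524, edgeR). No gene had groups that did not overlap, in males (2.36% of all genes), in females (7.89%) or over all mice (0.027%). Since the sex transcripts of 4 WT libraries go against their labels, each comparison within a sex mixes both kinds of WT mouse. The same labels gave the sex covariate of the fit of all mice and the difference between the sexes. No fit used the sex that the transcripts show.

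**Figure D3:**
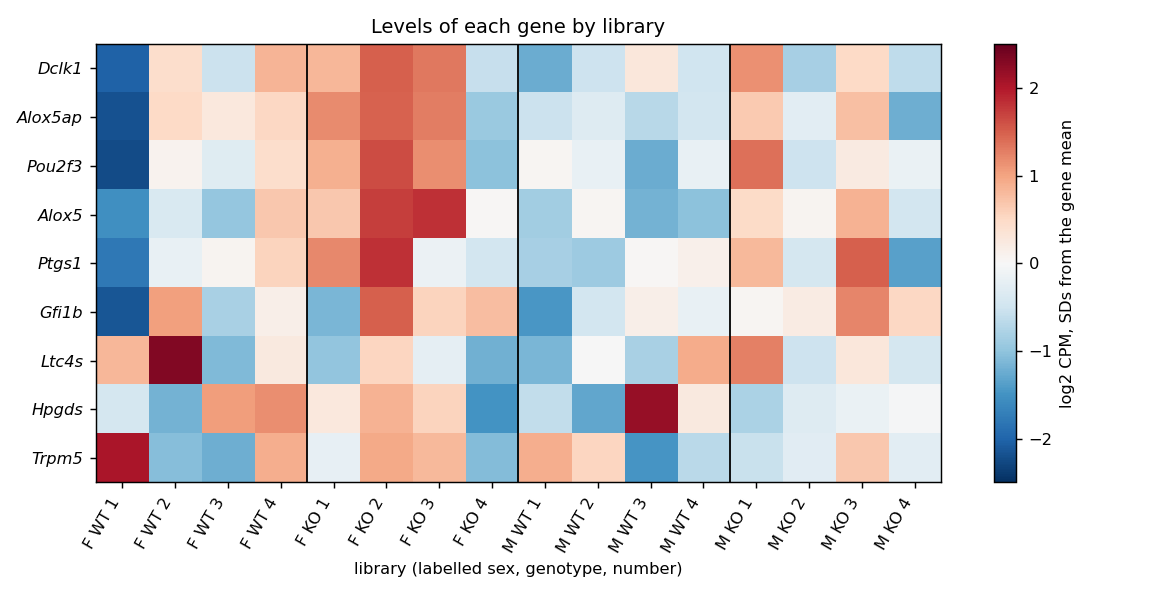
Level of the 9 genes that passed the filter in each of the 16 libraries, as log2 CPM in standard deviations from the mean of the gene. Dclk1, Alox5ap, Pou2f3, Alox5 and Ptgs1 were at their lowest in female WT 1, while Trpm5 was at its highest there.

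The genes did not vary independently over mice. In female WT 1, 6 of the 10 genes had their lowest value, and in female Slfn3KO 2, 5 of the 10 had their highest. Summed marker lists described below were also extreme there. Female WT 1 had the lowest Paneth cell (693 CPM) and stroma and muscle (7.48 CPM) sums and the highest epithelial sum (22530 CPM). Female Slfn3KO 2 had the highest Paneth cell sum (7485 CPM) and the lowest epithelial sum (9504 CPM). The part of these cell types in the relations below was not tested. The 10 pairs formed by Dclk1, Pou2f3, Alox5, Alox5ap and Ptgs1 had Pearson r from 0.637 to 0.889 and Spearman rho from 0.556 to 0.859 over the 16 libraries. Unadjusted p ran from 2e-05 to 0.0082 for r and from 6e-05 to 0.0273 for rho (permutation tests). Adjusted p ran from 0.00129 to 0.0340 for r and from 0.00129 to 0.0703 for rho (permutation tests with 100000 resamples, adjusted together over 90 p-values of 45 relations). Pou2f3 and Alox5ap had the closest relation, with r = 0.889 and rho = 0.844, and Dclk1 and Alox5ap followed with r = 0.883 and rho = 0.859. The 10 pairs had r from 0.634 to 0.948 within the 8 Slfn3KO mice, from 0.447 to 0.889 within the 8 WT mice and from 0.759 to 0.935 without the WT libraries 3 and 4. Without the 2 libraries farthest from the median of the gene on the x axis, r lay between 0.454 and 0.793.

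Over all 16 libraries Trpm5 did not show this relation. Its r with the other 8 genes lay between -0.277 and 0.274, with no adjusted p under 0.262 for r or rho (permutation tests). Within the 8 Slfn3KO mice its r with these genes was from 0.389 to 0.856, and within the 8 WT mice from -0.678 to 0.111. Among all genes ranked by r with Dclk1, Alox5ap was at place 5, Pou2f3 at 32, Ptgs1 at 43 and Alox5 at 52, while Trpm5 was at 9190 of 14821. With Alox5, Trpm5 had r = 0.817 in the 8 Slfn3KO mice and r = 0.111 in the 8 WT mice, with Dclk1 0.627 and -0.563, and the genotypes were not compared by a test. Female WT 1, with 24.5 CPM of Trpm5 and 3.87 CPM of Dclk1, lay at opposite ends of the range for these genes. Without the 2 libraries farthest from the Trpm5 median, the r of Trpm5 was 0.582 with Alox5, 0.481 with Pou2f3, 0.351 with Alox5ap and 0.226 with Ptgs1. Its r with Dclk1 was 0.133 without the 2 libraries farthest from the Dclk1 median, and so is not to be ranked among these. Hpgds (r from -0.252 to 0.355) and Ltc4s (r from -0.252 to 0.257) had no adjusted p under 0.141 over the 16 libraries (permutation tests). Within the 8 Slfn3KO mice their r with the other genes was from 0.0788 to 0.856 for Hpgds and from 0.198 to 0.671 for Ltc4s, and within the 8 WT mice from -0.481 to 0.596 and from -0.481 to 0.417. Gfi1b had r = 0.616 with Dclk1 (p = 0.0106, adjusted p = 0.0367, permutation test), which fell to 0.316 without the 2 farthest libraries, and so rests in part on those. Its rho with Dclk1 was 0.468 (adjusted p = 0.160, permutation test). Within the 8 WT mice r was 0.922, within the 8 Slfn3KO mice 0.0471, and the genotypes were not compared by a test.

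**Figure D4:**
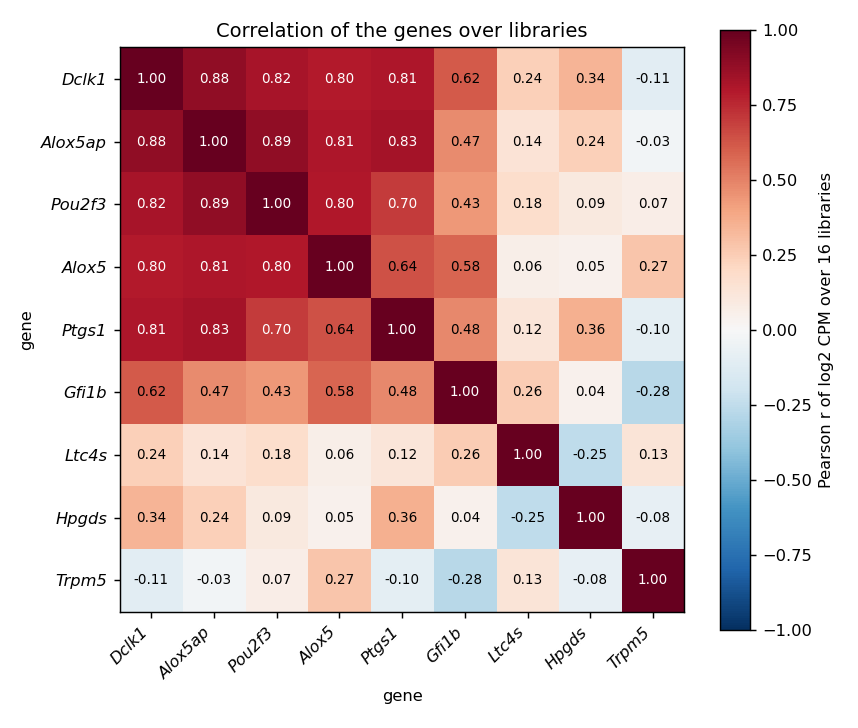
Pearson r of log2 CPM over 16 libraries for each pair of the 9 genes that passed the filter. Dclk1, Alox5ap, Pou2f3, Alox5 and Ptgs1 form a block with r between 0.64 and 0.89, and the r of Trpm5 with the others lies between -0.28 and 0.27.

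**Figure D5:**
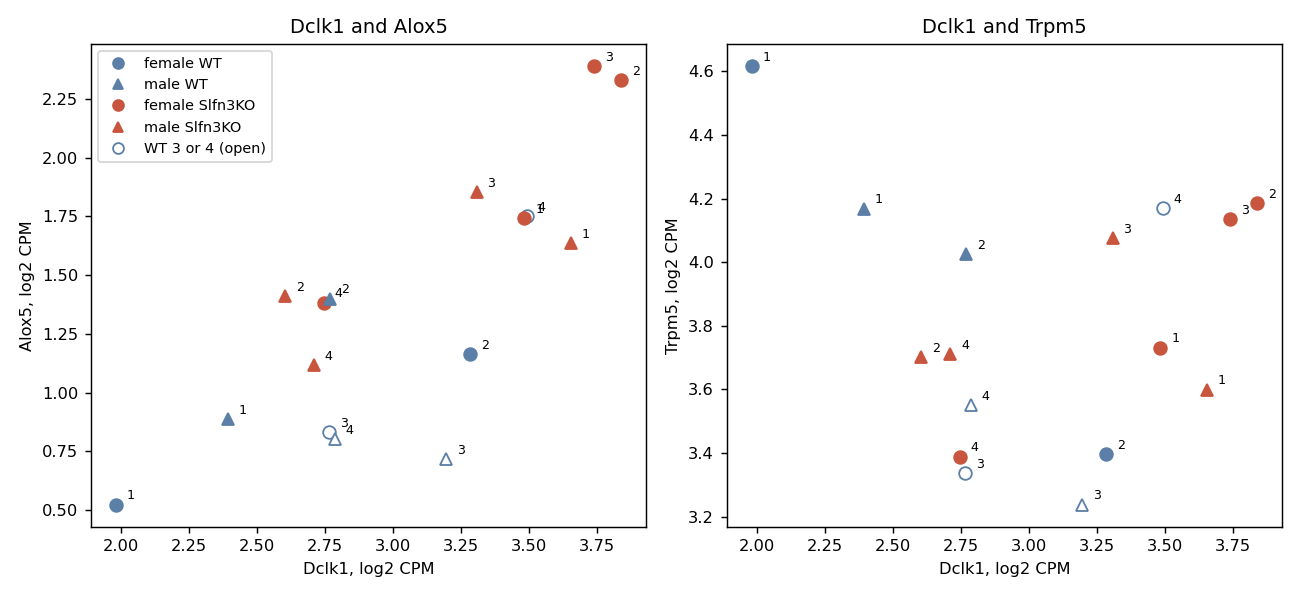
Log2 CPM of Alox5 (left) and Trpm5 (right) against Dclk1, with 1 point per library and its number beside it. Circles are libraries labelled female, triangles male, and open points are WT 3 and 4. Alox5 was higher where Dclk1 was (r = 0.795) and Trpm5 showed no such relation over the 16 libraries (r = -0.108), and female WT 1 is at the far left of each panel.

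A list of taste-type signalling genes of tuft cells, which also holds receptor genes outside that chain, was compared with the same group. Those that passed the filter were Gnat3, Plcb2, Itpr3, Tas1r3, Sucnr1, Il17rb and Ffar3, so the mean of the list does not stand for the chain alone. The mean log2 CPM of the 7 genes that passed the filter of 11 in that list (the gustducin subunit Gnat3 among them) had r = 0.722 and rho = 0.791 with Dclk1 (p = 0.0016 and 0.00042, adjusted p = 0.0083 and 0.0025, permutation tests) and r = 0.626 and rho = 0.632 with Ptgs1 (p = 0.0097 and 0.0103, adjusted p = 0.0367 for each, permutation tests). With Trpm5 it had r = 0.107 and rho = 0.188 (p = 0.695 and 0.483, adjusted p = 0.813 and 0.669, permutation tests). Without the 2 libraries farthest from the median of the list, r was 0.651 with Dclk1, 0.563 with Ptgs1 and 0.343 with Trpm5. Between genotypes, 0 of the 7 genes was higher and 1 was lower at an unadjusted p under 0.05, and the median log2 fold change was -0.03. Plcb2, the phospholipase of the chain, was lower (-0.76, SE 0.32, unadjusted p = 0.0324, adjusted p = 0.373, edgeR), with 4.82 ± 1.28 CPM in Slfn3KO and 8.13 ± 5.19 CPM in WT (SD, n = 8 each). It was at 0.08 without the WT libraries 3 and 4. The succinate receptor gene Sucnr1 was at 0.48 (SE 0.34, adjusted p = 0.591, edgeR) and Gnat3 at 0.27 (SE 0.36, adjusted p = 0.764, edgeR). Gnb3 and the taste receptor gene Tas1r1 had at most 3 counts in every library.

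A list of 14 further genes of tuft cell identity and structure passed the filter in full. At an unadjusted p under 0.05, 4 were higher in Slfn3KO and 2 were lower, against 11.9% of all genes at that p and 4.84% higher, and none was called. The median log2 fold change of the list was 0.12, and it was 0.50, with 14 of 14 genes above 0 and 5 of them at an unadjusted p under 0.05, without the WT libraries 3 and 4 (against 7966 of 15093 genes above 0 and 5.8% at that p in that fit). Sh2d6, which encodes an adaptor with an SH2 domain, was higher (0.60, SE 0.22, unadjusted p = 0.0146, adjusted p = 0.333, edgeR), with 11.6 ± 3.57 CPM in Slfn3KO and 7.63 ± 2.55 CPM in WT (SD, n = 8 each). Spib (-1.90, SE 0.65, adjusted p = 0.327, edgeR) and Irag2 (-1.02, SE 0.36, adjusted p = 0.333, edgeR) were lower, and lymphocytes express both. Spib lay between 55.8 and 107 CPM in female WT 3, female WT 4 and male WT 3 and between 3.93 and 27.6 CPM in the other 13 libraries. Without the WT libraries 3 and 4 the log2 fold change was 0.22 for Spib and 0.0051 for Irag2.

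The genes whose level followed the mean of Dclk1, Trpm5, Pou2f3 and Gfi1b most closely over the 16 libraries, other than the 10 genes themselves, were led by tuft cell genes. Each of the 4 was standardised before the mean was taken. Sh2d6 came first (r = 0.958) and Avil, the gene of an actin-binding protein of the tuft, second (r = 0.912). Chat, which encodes the acetylcholine-synthesising enzyme, Sh2d7 and Bmx, a kinase gene, also stood among the first 10 (r from 0.867 to 0.870), so that 5 of the 10 came from the list of tuft identity genes. The other 5 were Crtc1, Sinhcaf, Strip2, Rgs22 and D230025D16Rik (r from 0.843 to 0.888). These r values were picked as the highest of all and carry no p. For Alox5 the 3 most alike genes were Avil (r = 0.922), Sh2d6 (r = 0.912) and Chat (r = 0.878). For Dclk1 they were Ccnj (0.932), Sh2d6 (0.915) and Strip2 (0.905), for Pou2f3 Lipt1, Smyd3 and Sirt5 (0.881 to 0.903), for Alox5ap Zfp606, Smpx and Lipt1 (0.876 to 0.899), and for Ptgs1 Pcsk6, Bmp5 and Pcdh7 (0.916 to 0.929). For Trpm5 they were Anks3, Gm42477 and Pigf (0.801 to 0.850), for Gfi1b Smad9, Rab34 and Lonrf1 (0.750 to 0.790), for Ltc4s Tm4sf4, Zfp764 and Abcf3 (0.857 to 0.889), and for Hpgds Usp11, Pou6f1 and Vamp4 (0.888 to 0.907). None of the genes named for Pou2f3, Alox5ap, Ptgs1, Trpm5, Gfi1b, Ltc4s and Hpgds belongs to a tuft cell list used here. Those that do are the 3 of Alox5 and, for Dclk1, Sh2d6.

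Of 17 other genes of eicosanoid synthesis, export and reception, 14 passed the filter, none reached an unadjusted p under 0.05, and their median log2 fold change was -0.05. The smallest p-values were those of Ggt1, a gamma-glutamyl transferase gene (-0.32, SE 0.17, unadjusted p = 0.0707, adjusted p = 0.459, edgeR), Pla2g4a, which encodes the phospholipase that releases arachidonic acid (0.51, SE 0.33, unadjusted p = 0.145, adjusted p = 0.561, edgeR), and Dpep1, a dipeptidase gene (-0.21, SE 0.15, unadjusted p = 0.165, adjusted p = 0.583, edgeR). Ptgds and Oxgr1 had at most 3 counts in every library. In the type 2 circuit around IL-25, 10 of 16 genes passed the filter, 1 reached an unadjusted p under 0.05, near the 11.9% of all genes, and the median log2 fold change was 0.01. That gene was Gata3, the transcription factor of type 2 lymphocytes, with 0.532 ± 0.178 CPM in Slfn3KO and 0.803 ± 0.246 CPM in WT (SD, n = 8 each) (-0.59, SE 0.24, unadjusted p = 0.0273, adjusted p = 0.354, edgeR), and without the WT libraries 3 and 4 it was at -0.38 (unadjusted p = 0.199, edgeR). Il4ra (-0.30, SE 0.17, adjusted p = 0.511, edgeR) and Stat6 (-0.14, SE 0.12, adjusted p = 0.659, edgeR), the receptor chain and signal transducer of IL-4 and IL-13, followed. The cytokine genes Il4, Il5, Il9 and Il13 had at most 3 counts in every library.

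Several cell type markers moved with the groups compared here. The summed level of 5 pan-leukocyte genes ran from 59.0 to 224 CPM in Slfn3KO and from 120 to 804 CPM in WT, and all 5 genes were lower in Slfn3KO at an unadjusted p under 0.05 (11.9% of all genes, in either direction), with a median log2 fold change of -1.29. With the WT libraries 3 and 4 left out, 0 of the 5 reached that p (edgeR) and the median was -0.20. Ptprc, the gene of the leukocyte antigen CD45, was at 137, 152 and 239 CPM in female WT 3, female WT 4 and male WT 3 and between 19.5 and 74.4 CPM in the other 13 libraries. Because these libraries stood apart, no r of the genes with the leukocyte list was taken over all 16. The 7 B cell and follicle genes, Cd79a among them, summed to between 1.87 and 112 CPM in Slfn3KO and between 4.14 and 741 CPM in WT, and their median log2 fold change was -3.01, or 0.08 without the WT libraries 3 and 4. The 5 T cell genes summed to 35.0 to 94.9 CPM in Slfn3KO and 31.7 to 155 CPM in WT. Of the lists above, Hpgds, Spib, Irag2 and Plcb2 were high in these same libraries, and the part of the leukocytes in their values was not tested.

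The 4 Paneth cell genes summed to between 3123 and 7485 CPM in Slfn3KO and between 693 and 4811 CPM in WT, with 3 of 4 higher at an unadjusted p under 0.05 (4.84% of all genes), or 1 of 4 without the WT libraries 3 and 4. The 8 mast cell genes summed to 24.4 to 56.6 CPM in Slfn3KO and 14.7 to 31.0 CPM in WT, with 3 of the 4 that passed the filter higher at that p and a median log2 fold change of 1.28. In the fit lacking the WT libraries 3 and 4, 2 of the 7 that passed were higher at that p and the median was 0.77. Cpa3, the mast cell carboxypeptidase gene, had 0.528 ± 0.395 CPM in Slfn3KO and 0.200 ± 0.156 CPM in WT (SD, n = 8 each) and was at 0 in 1 WT library, and Cma1 had at most 3 counts in every library. The 4 M cell genes summed to 15.7 to 36.7 CPM in Slfn3KO and 16.6 to 72.0 CPM in WT. By median, the Paneth and mast cell lists were higher in Slfn3KO, as were Alox5, Pou2f3 and Dclk1, and the M cell list was lower, as was Hpgds, and their part in the results was not tested. The M cell median was -0.71, and 0.21 without the WT libraries 3 and 4, a fit in which Hpgds was at 0.34. The 6 stroma and muscle genes had a median log2 fold change of 0.20, none of them at that p. In the fit that left out the WT libraries 3 and 4, where Dclk1 was at 0.64 and Ptgs1 at 0.50, all 6 were higher, 2 of them at that p, with a median of 1.27, and their part in those values was not tested. Within Slfn3KO their sum was highest in female 2 (73.8 CPM), male 3 (67.4) and female 1 (46.9). Ptgs1 was also highest in these libraries (10.5, 9.71 and 9.03 CPM). In WT the sum was highest in male WT 4 (79.6 CPM) and Ptgs1 in female WT 4 (7.67 CPM).

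For the other lists, too, the ranges of the genotypes overlapped, as they did for each list above. Summed levels ran from 35.3 to 76.6 CPM in Slfn3KO and from 37.7 to 99.4 CPM in WT for 6 macrophage genes, from 0.238 to 1.14 and from 0.166 to 2.24 CPM for 4 neutrophil genes, and from 0.387 to 1.51 and from 0.175 to 4.42 CPM for 3 eosinophil genes. In Slfn3KO and WT they were 156 to 227 and 106 to 222 CPM for enteroendocrine genes, 12728 to 21022 and 13211 to 20905 CPM for goblet cell genes, 9504 to 18463 and 12334 to 22530 CPM for epithelial genes, 10416 to 22728 and 14813 to 27971 CPM for ileal enterocyte genes and 11.1 to 73.8 and 7.48 to 79.6 CPM for stroma and muscle genes.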

How the data were processed

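RNA of the ileum mucosa of 16 mice was sequenced as single reads of 50 bases. The authors trimmed reads with cutadapt, aligned them to mm10 with STAR and deposited a table of raw counts per gene with exon lengths, without normalization, and per the file headers featureCounts counted them on the reverse strand (the study's methods name HTSeq). The submitters' processing notes list featureCounts 1.4.6 and DESeq2 1.22.2. The table names no genes, and GENCODE M21 gave symbols to 45143 of its 46078 identifiers. Of the columns of per-sample values, 0 were left unused.

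Samples were grouped by the labels. Fold changes came from edgeR 4.0.16 in R 4.3.3 (TMM factors, filterByExpr, robust quasi-likelihood F test), with labelled sex as a covariate for all mice, no covariate within a sex and the interaction for the difference between the sexes. DESeq2 1.42.0, which the study used, was an alternative. Correlations used log2 CPM with a prior count of 2. On simulated counts of 14623 genes, the pooled edgeR test recovered 68% of 2-fold and 92% of 4-fold changes, with 6 false calls among 166. The counts were drawn independently for each gene around its mean, with changes planted in genes of any level. They lack the differences that these libraries share over many genes, such as those of the leukocyte markers. The shares recovered are therefore not the power of the test for the genes followed here. With between 20823279 and 30813117 counts per library, sampling of reads limits Il25 and Gfi1b most.

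The genes, lists and tests were chosen with earlier results of these data known. Named genes are the 10 genes, the 3 genes with the smallest p in each of 4 lists (tuft identity, taste-type signalling, eicosanoids, type 2 circuit), the 10 genes most alike to the mean of Dclk1, Trpm5, Pou2f3 and Gfi1b, the 3 most alike to each gene, and Ptprc, Cd79a, Cpa3 and Epcam. Xist, the Y-linked genes, Slfn3, genes overlapping an exon, genes with at most 3 counts and the genes of the taste-type list that passed the filter are named besides. The replicate numbers come from the sample titles and mark different mice. Deviations from the group means of same-numbered mice had r from 0.138 to 0.518 in males and from -0.362 to 0.143 in females. By the rule used (every r above 0.1), the males met it and the females did not. Mice of different numbers were not correlated, so these r cannot show that the numbers pair mice, and the labels state no pairing. Alternatives were RLE factors, DESeq2, no filter, no sex covariate, a joint fit of the 4 groups, a block for the replicate number and leaving out each mouse in turn, and, added after seeing the data, leaving out the WT libraries 3 and 4. A list of platelet and erythroid genes is not reported here.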

Additional observations from a re-analysis of the deposited data

Results flagged for a closer look

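Alox5ap was flagged in 2 of the 40 groups of 4 values checked (10 genes in 4 groups), as a sample far from the other 3 of its group by Dixon's ratio at its 95% critical value. Chance flags about 1 in 20 such groups. In female Slfn3KO, replicate 4 had 1.81 CPM, and the nearest of the other 3 had 4.09 CPM (ratio 0.834). In female WT, replicate 1 had 1.10 CPM, and the nearest had 2.86 CPM (ratio 0.856). The same libraries were low in Dclk1 (6.62 and 3.87 CPM) and in Pou2f3 (0.883 and 0.452 CPM). No gene moved in opposite directions in the 2 labelled sexes with groups that did not overlap.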

How the results depend on the processing

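None of the genes was called in the pooled, male, female or female minus male comparison under any alternative run, DESeq2 included, which gave Gfi1b no adjusted p. Over all genes tested, DESeq2 called 54 of 14822 pooled, 14 of 14124 in males and 506 of 14064 in females. For the female minus male difference it called 19 of 14822. Of 443 log2 fold changes under alternatives, 422 kept their direction and 21 turned, those of Hpgds, Trpm5 and Ltc4s, and the cause was not tested. With each mouse left out in turn, Hpgds lay between -0.29 and 0.0048 pooled, -0.49 and 0.10 in males and -0.23 and 0.11 in females. Trpm5 then lay between -0.12 and 0.092 pooled, -0.14 and 0.14 in males and -0.26 and 0.20 in females, and Ltc4s between -0.014 and 0.38 in males. Without the WT libraries 3 and 4, Hpgds was 0.34 pooled, 0.28 in males and 0.41 in females. In that pooled fit Trpm5 was -0.28, Ltc4s -0.34, Gfi1b 0.86, Alox5 0.75, Pou2f3 0.73 and Alox5ap 0.53.

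The number of genes at an unadjusted p under 0.05 in the pooled fit was 2 and ran from 1 to 4 when each mouse was left out. It was 4 without female Slfn3KO 4 or male Slfn3KO 4, and 1 without female Slfn3KO 2 or 3, male Slfn3KO 1 or 3, female WT 1 or 3, or male WT 2 or 4. Alox5 was among them in every setting. With the replicate number as a block that number was 2 (Alox5 and Gfi1b, whose unadjusted p was 0.0061, edgeR), no call changed in the fits with this block, and Trpm5 was 0.0015 pooled and 0.027 in males.

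Without the WT libraries 3 and 4 the r of Trpm5 was -0.18 with Pou2f3, -0.060 with Alox5, -0.032 with Ltc4s, 0.44 with Hpgds and -0.17 with the taste-type list, the r of Alox5 and Ltc4s was -0.039, and the r of Alox5 and Hpgds was 0.59 (unadjusted p = 0.0468, permutation test). With 4 mice against 4, the simulated recovery of 2-fold changes, in genes of any level, was 45% in males and 40% in females. These simulations, too, lack what the libraries share over many genes, so the shares are not the power for the genes followed here.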
